A study of Mus musculus with 20 samples.

Results

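Of the 59495 autosomal H3K27ac peaks under 10000 bp in Comma-Dβ mouse mammary epithelial cells, 2060 (3.46%) shared at least 1 bp with an H3K27me3 peak, and these 2060 peaks are described here. They were chosen from the overlap of the deposited H3K27ac and H3K27me3 peak lists, so the position, width, fold enrichment and q-value of those lists describe the peaks and support nothing about them. The other 57435 H3K27ac peaks of the same chromosomes and widths touched no H3K27me3 and serve as the comparison. Of the 2060 peaks, 1398 (67.9%) had 50% or more of their length covered by H3K27me3 and are called deep overlaps, and 662 (32.1%) had less and are called edge contacts. The name edge contact stands for the smaller cover only. In some of these peaks H3K27me3 lay within the H3K27ac peak and ran over neither edge. An H3K4me3 peak touched 420 of the deep overlaps and 236 of the edge contacts.

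The study made chromatin immunoprecipitation libraries (ChIP-seq) against 4 targets (H3K27ac, H3K27me3, H3K4me3 and the transcription factor HEB), and input libraries, from Comma-Dβ cells at passage 28, with 4 replicates in each of the 5 groups. Comma-Dβ is a line of mouse mammary epithelial cells, so all groups come from 1 line. HEB is the E protein encoded by Tcf12. One list of peaks per antibody was used here, with no value per replicate and no read counts, so the depth is unknown, no spread between replicates can be given, and no difference below was tested. Intervals in parentheses after a share are Wilson 95% intervals over peaks, or for promoter sequence over the promoter windows described below, and cover counting error only. A gene can have several windows, and those of 1 gene are not independent. As a check on the labelled cell type, H3K27ac lay within 1 kb of an end of 8 of 9 mammary epithelial marker genes (Krt8, Krt18, Krt5, Krt14, Krt17, Cdh1, Epcam and Itga6, but not Trp63), and of 1 of 4 immune, 1 of 3 endothelial, 0 of 2 adipocyte, 0 of 3 neuronal and 0 of 3 skeletal muscle markers.

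H3K27ac, the acetylated form of lysine 27 of histone H3, is found at active promoters and enhancers. H3K27me3, the trimethylated form of the same lysine, is laid down by Polycomb repressive complex 2 over silent developmental genes, and a given lysine carries either the acetyl group or the methyl groups. H3K4me3 is found at promoters, and promoters that carry H3K4me3 together with H3K27me3 are called bivalent. Bivalent promoters are usually rich in CpG. Peaks from a population of cells that cover the same bases may come from the same nucleosomes, from the alleles of 1 cell or from different cells, and these cannot be told apart here.

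The promoter windows of a few genes named below are printed first. Epcam, Ocln, Cldn7, Grhl3 and Cldn3 belong to a list of 28 epithelial adhesion genes and epithelial transcription factors, of which more members lay at an overlap than in any other of 28 gene lists, and the 5 windows were picked among those of the list that hold the E-box CAGGTG on one strand or the other. Ovol2, the other gene of the list with a start in a deep overlap, lacks it. Gabrp, from a luminal progenitor list, is the contrast without H3K4me3 and without that E-box. Each sequence is the RefSeq GRCm38.p6 window from 250 bases before to 50 after an annotated start, read along the gene, with CAGGTG or its reverse complement CACCTG in capitals. The windows lie at chr17:87635729-87636028 (plus strand, Epcam), chr13:100552449-100552748 (minus strand, Ocln), chr11:69965171-69965470 (plus strand, Cldn7), chr4:135573583-135573882 (minus strand, Grhl3), chr5:134985964-134986263 (plus strand, Cldn3) and chr11:33578908-33579207 (minus strand, Gabrp).
Epcam: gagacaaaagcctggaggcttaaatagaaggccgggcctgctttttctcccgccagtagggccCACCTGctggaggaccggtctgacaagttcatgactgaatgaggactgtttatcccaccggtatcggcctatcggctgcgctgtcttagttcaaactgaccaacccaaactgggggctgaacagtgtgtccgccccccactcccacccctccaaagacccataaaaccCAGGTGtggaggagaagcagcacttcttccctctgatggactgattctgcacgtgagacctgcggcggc
Ocln: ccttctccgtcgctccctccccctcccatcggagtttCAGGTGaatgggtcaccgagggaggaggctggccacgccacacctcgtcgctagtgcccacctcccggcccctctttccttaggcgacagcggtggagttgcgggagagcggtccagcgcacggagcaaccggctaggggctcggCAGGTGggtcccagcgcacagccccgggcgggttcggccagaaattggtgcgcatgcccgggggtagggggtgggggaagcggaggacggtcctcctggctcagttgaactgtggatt
Cldn7: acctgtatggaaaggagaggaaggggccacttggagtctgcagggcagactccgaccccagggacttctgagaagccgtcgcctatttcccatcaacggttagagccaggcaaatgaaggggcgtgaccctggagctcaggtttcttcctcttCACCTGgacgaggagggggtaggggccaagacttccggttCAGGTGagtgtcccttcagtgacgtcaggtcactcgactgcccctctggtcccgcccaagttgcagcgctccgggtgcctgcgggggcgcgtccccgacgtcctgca
Grhl3: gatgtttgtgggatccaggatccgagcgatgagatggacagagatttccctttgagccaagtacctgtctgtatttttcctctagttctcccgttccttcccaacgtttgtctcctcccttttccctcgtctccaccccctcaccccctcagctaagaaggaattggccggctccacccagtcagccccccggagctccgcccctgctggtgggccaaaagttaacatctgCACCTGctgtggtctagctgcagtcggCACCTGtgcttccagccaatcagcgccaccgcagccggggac
Cldn3: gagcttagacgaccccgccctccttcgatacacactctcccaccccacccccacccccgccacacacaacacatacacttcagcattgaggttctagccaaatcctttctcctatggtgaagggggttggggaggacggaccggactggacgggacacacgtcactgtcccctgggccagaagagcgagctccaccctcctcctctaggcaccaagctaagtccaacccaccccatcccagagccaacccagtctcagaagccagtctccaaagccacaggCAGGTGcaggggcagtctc
Gabrp: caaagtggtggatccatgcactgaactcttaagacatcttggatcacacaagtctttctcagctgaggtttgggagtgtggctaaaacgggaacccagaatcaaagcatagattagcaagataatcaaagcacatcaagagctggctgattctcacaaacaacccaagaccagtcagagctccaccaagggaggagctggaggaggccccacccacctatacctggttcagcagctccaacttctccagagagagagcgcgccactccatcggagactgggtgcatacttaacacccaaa

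The windows of Epcam, Ocln, Cldn7 and Grhl3 each hold the E-box at 2 places, and that of Cldn3 at 1. H3K27me3 and H3K4me3 peaks both covered the starts of Epcam, Ocln, Cldn7 and Grhl3. At Cldn3 neither covered the start, since the H3K27me3 contact was elsewhere in a 9.08 kb H3K27ac peak. The CpG ratio, observed over that expected from the base composition, was 0.45 for Epcam, 0.70 for Ocln, 0.58 for Cldn7, 0.49 for Grhl3, 0.35 for Cldn3 and 0.21 for Gabrp. No HEB site overlapped any of the 6 windows, and HEB lay in only 1.09% of all 59495 H3K27ac peaks.

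The cover of H3K27ac peaks by H3K27me3 was most often complete or nearly so. The median overlap peak had 95.9% of its length covered (quartiles 35.6% and 100%), 995 peaks (48.3%) lay wholly inside 1 H3K27me3 peak, and 1078 were covered by 90% or more. Another 839 were covered by 10% to under 90%, and 143 by under 10%. Near the limit of 1 bp, the peak next to Tbc1d1 shared 2 bp and that next to Tfcp2l1 shared 3 bp, while the peak next to Zfp385b missed H3K27me3 by 1 bp and that next to Cplx2 by 2 bp. Such near misses were few, with 360 of the other peaks (0.627%) within 500 bp of H3K27me3 and a median gap of 50.5 kb. Near the limit of 50%, the peak at Stard10 was covered by 50.1% and the one at Col9a1 by 49.9%. Near the width limit, a 9858 bp peak at Ehf was covered by 63.5%, and a 10673 bp peak at the basal keratin gene Krt5, covered by 64.7%, was left out as too wide. Of all 710 autosomal H3K27ac peaks of 10000 bp or more, 18 (2.54%) touched H3K27me3.

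**Figure D1:**
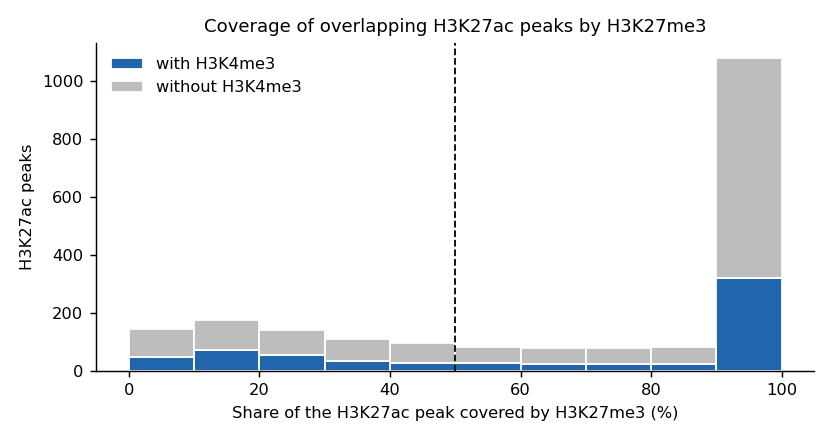
Number of overlapping H3K27ac peaks (vertical axis) by the share of their length that H3K27me3 peaks cover, in percent (horizontal axis), with peaks that touch H3K4me3 in blue and the others in grey; the dashed line marks 50%. The bar from 90% to 100% holds 1078 of the 2060 peaks, and both shades are present along the whole axis.

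The marks were arranged in 4 ways. In 995 peaks H3K27ac lay inside an H3K27me3 peak, in 800 H3K27me3 ran over 1 edge of the H3K27ac peak, in 28 separate H3K27me3 peaks ran over both edges, and in 237 the H3K27me3 peak lay within the H3K27ac peak. H3K4me3 touched 29.7% of the first kind, 30.1% of the second and 47.7% of the last. Of the 237 peaks of the last kind, 65 were deep overlaps. The rest count as edge contacts by their cover alone, since H3K27me3 ran over neither edge. The H3K27ac peaks inside H3K27me3 were narrow, with a median width of 687 bp, in H3K27me3 peaks with a median width of 6327 bp. Those that enclosed H3K27me3 were 2112 bp wide at the median and the H3K27me3 inside them 601 bp. In H3K27me3 peaks of 10 kb or more, 345 H3K27ac peaks lay a median of 4126 bp from the nearer edge, and 49 of them (14.2%) lay within 1 kb of it.

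H3K27me3 peaks seldom held H3K27ac. Of 97965 autosomal H3K27me3 peaks, 2021 (2.06%) touched an overlap peak, at 330 of 7145 peaks of 10 kb or more (4.62%) and 1691 of 90820 narrower ones (1.86%). A longer peak has more bases that can be touched, and these shares are not adjusted for length. Most were touched once, but 76 held several H3K27ac peaks, and 175 of the 2060 shared their H3K27me3 peak with another. Peaks that share an H3K27me3 peak are not independent of each other. The 5 H3K27me3 peaks with the most lay at 2 Hox clusters, Hpse2 and Bahcc1, and next to Cbx8. A 56.3 kb H3K27me3 peak over Hoxb5 to Hoxb9 (chr11:96247999-96304324, fold 2.73) held 8 H3K27ac peaks, 6 of them with H3K4me3. The Hoxc cluster, under 1 H3K27me3 peak of 181.6 kb (chr15:102891508-103073067, fold 4.26), held 5, of which 2 had H3K4me3. A 53.6 kb H3K27me3 peak at Hpse2, which encodes a heparanase-related protein, held 7 H3K27ac peaks, all lacking H3K4me3.

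The same H3K27ac peak could hold all 3 marks on common bases. Of the 656 overlaps with H3K4me3, 636 (97.0%) had at least 1 base under all 3 peaks. H3K4me3 covered 80.3% of the bases that H3K27ac and H3K27me3 shared in these peaks, and 56.3% of their bases under H3K27ac alone. In the 360 peaks with both kinds of bases, the part shared with H3K27me3 had the larger H3K4me3 cover in 184, the unshared part in 48, and in 128 they were equal. The medians were 100% of the shared and 83.7% of the unshared bases. The 2 parts differ in length, and these shares are not adjusted for it. Of the 360 peaks 236 were edge contacts, with a median of 391 shared bp in peaks 2102 bp wide at the median. A short stretch is more readily covered in full.

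H3K4me3, which the choice of the peaks did not use, touched 656 overlaps, or 31.8% (29.9 to 33.9), against 20.9% (20.5 to 21.2) of the other H3K27ac peaks and 21.2% of all of them. The share was 30.04% (27.7 to 32.5) in deep overlaps and 35.6% (32.1 to 39.4) in edge contacts. Width moves with both, since deep overlaps were 796 bp wide at the median, edge contacts 1650 bp and other peaks 1327 bp. Within each range of widths the overlaps had the larger share. Under 1 kb it was 22.5% (20.1 to 25.2) of overlaps and 8.30% (7.94 to 8.67) of other peaks, and from 1 to 2 kb 33.9% and 21.9%. From 2 to 4 kb it was 44.4% and 31.5%, and from 4 to 10 kb 67.2% (58.6 to 74.8) and 42.8% (41.5 to 44.2). Edge contacts did not lead deep overlaps in any of the 4 ranges, and from 4 to 10 kb deep overlaps had 78.4% and edge contacts 62.5%, with intervals that overlapped.

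**Figure D2:**
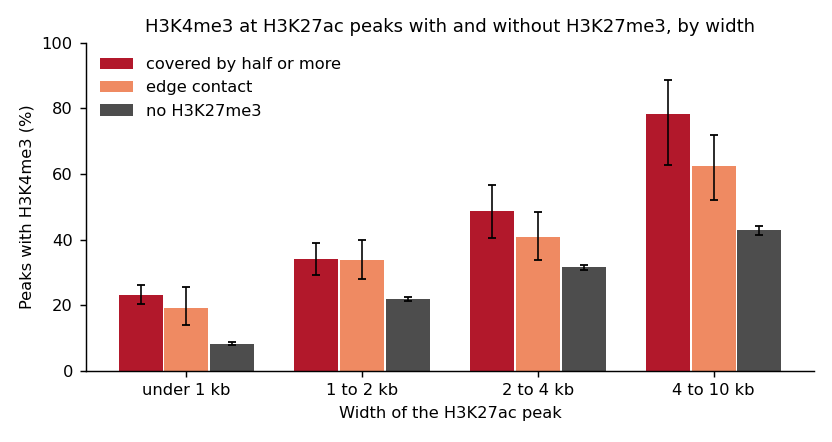
Share of H3K27ac peaks that touch an H3K4me3 peak, in percent (vertical axis, from 0), by the width of the H3K27ac peak (horizontal axis), for deep overlaps, edge contacts and peaks without H3K27me3; bars are shares and error bars Wilson 95% intervals over peaks. In every range of widths both kinds of overlap stand above the peaks without H3K27me3, from 23.2% and 19.05% against 8.30% under 1 kb to 78.4% and 62.5% against 42.8% from 4 to 10 kb.

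While H3K4me3 was more frequent at the overlaps, the H3K4me3 peaks there had lower deposited folds. The median H3K4me3 fold was 9.54 (quartiles 4.85 and 13.8) at overlaps and 18.2 (7.74 and 26.3) at other H3K27ac peaks. It was 8.60 at deep overlaps and 11.2 at edge contacts. At gene ends, where H3K4me3 touched 82.4% of overlaps and 77.0% of other peaks, the medians were 11.2 and 22.1. Inside genes H3K4me3 touched 20.2% (17.3 to 23.5) of overlaps and 7.82% (7.51 to 8.15) of other peaks, and between genes 11.5% (9.62 to 13.8) and 8.45% (8.07 to 8.84). The H3K4me3 folds between genes were low in both, at medians of 2.75 and 3.18.

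H3K27ac and H3K27me3 enrichment differed between the 4 classes, as a description of what the choice used. The median H3K27ac fold was 2.20 at overlaps (quartiles 1.94 and 2.82) and 2.39 at other peaks, and 34.7% of overlaps against 44.8% of other peaks had a −log10 q of 5 or more. It was 2.57 at deep overlaps with H3K4me3 and 2.01 at those without, and 3.17 at edge contacts with H3K4me3 and 2.30 at those without. The other H3K27ac peaks with H3K4me3 had a median of 4.22. The median over peaks of the highest H3K27me3 fold touched was 2.24 at deep overlaps with H3K4me3 and 1.88 at those without, and 1.87 at edge contacts with H3K4me3 and 1.72 at those without. In 260 overlaps (12.6%) both marks had a −log10 q of 5 or more, and 203 of these (78.1%, 72.7 to 82.7) touched H3K4me3, against 25.2% of the other 1800. At that q, the share among H3K27ac peaks outside the overlaps was 41.1%. Of deep overlaps with H3K4me3, 53.3% had an H3K27ac −log10 q of 5 or more, and of those without, 15.1%.

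**Figure D3:**
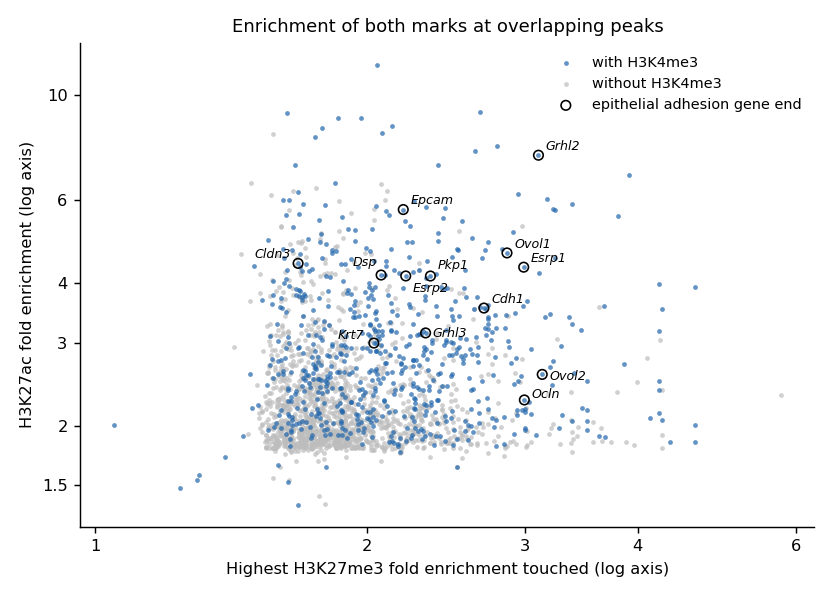
Deposited H3K27ac fold (vertical log axis) against the highest deposited H3K27me3 fold touched (horizontal log axis) for each of the 2060 overlapping peaks, with H3K4me3 in blue and without in grey; open circles mark peaks that hold an end of an epithelial adhesion gene. Points without H3K4me3 crowd at the low corner, near the medians of 2.01 and 1.88 for deep overlaps, and the circled peaks reach an H3K27ac fold of 7.46 at Grhl2 and an H3K27me3 fold of 3.13 at Ovol2.

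The classes lay in different places. Within 1 kb of an end of a protein-coding gene were 512 overlaps (24.9%, 23.0 to 26.8), against 18.5% (18.2 to 18.8) of other H3K27ac peaks and 18.7% of all. Another 31.0% of overlaps lay inside genes and 44.2% between genes, against 46.7% and 34.8% of other peaks. Of deep overlaps with H3K4me3, 61.7% were at gene ends and 18.6% between genes, while of deep overlaps without H3K4me3 4.81% were at gene ends and 59.3% between genes. The other H3K27ac peaks split in a like way at gene ends, at 68.4% with H3K4me3 and 5.38% without, and had 14.1% and 40.3% between genes. The nearest gene end was a median of 0.306 kb away for deep overlaps with H3K4me3 and 27.5 kb away for those without. The genes nearest to the most overlaps, looked up after the values were seen, were the calcium channel gene Cacna1c with 16 (1 with H3K4me3), the hedgehog inhibitor gene Hhip with 10 (1 with H3K4me3) and the epithelial transcription factor gene Ehf with 9 (1 with H3K4me3).

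Epithelial genes were the best represented of the 28 lists. Over all 20665 autosomal protein-coding genes, 307 (1.49%) had a gene end inside an overlap peak, whereas 13 of 28 epithelial adhesion genes (46.4%) did, with a median H3K27ac fold of 4.15 against 3.13 over the 307. All 13 peaks had H3K4me3, and over all genes the peaks of 271 of the 307 did. The lists were written with earlier results of these data known, and no test was made. With peaks of any width set on the gene end itself, 20 genes of the list had H3K27ac, 13 had H3K27me3 and 22 had H3K4me3. Over all 20665 genes, 9472 had H3K27ac, 5004 had H3K27me3 and 10468 had H3K4me3. With a −log10 q of 5 or more for both H3K27 marks, 8 of the 28 remained at an overlap (28.6%), against 109 of 20665 genes (0.527%).

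Deep overlaps held 8 of the 13 genes, and over all genes 156 of the 307. Grhl2, which encodes a transcription factor that activates epithelial junction genes, had a 3.44 kb H3K27ac peak (chr15:37232150-37235590) of fold 7.46 wholly under an 11.85 kb H3K27me3 peak of fold 3.10, with H3K4me3 at fold 12.3. Cdh1, the E-cadherin gene, had a 2.70 kb H3K27ac peak (chr8:106602332-106605028) of fold 3.55, covered to 88.2% by a 2.40 kb H3K27me3 peak of fold 2.70, with H3K4me3 at fold 18.0. H3K27me3 at Cdh1 thus had about the extent of the promoter peak, whereas at Grhl2 it reached beyond it on both sides.

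Epcam, which encodes an epithelial adhesion molecule, had an H3K27ac peak (chr17:87635744-87637865) of fold 5.73 wholly covered by H3K27me3 of fold 2.20. Esrp1, the gene of an epithelial splicing regulator, had H3K27ac of fold 4.33 (chr4:11384315-11388859) inside a 15.2 kb H3K27me3 peak of fold 2.99. Ocln, the occludin gene of tight junctions, and Ovol2, the gene of a zinc finger repressor of mesenchymal genes, had the lowest H3K27ac folds of the 8, at 2.27 and 2.57, and H3K27me3 folds of 2.99 and 3.13. The related gene Ovol1 had an H3K27ac fold of 4.64 and 63.6% cover, and Grhl3 a fold of 3.14 and 100% cover. These 8 peaks are spread over 7 chromosomes.

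The other 5 genes of the list were edge contacts. At the desmosome genes Dsp and Pkp1, 29.9% and 19.2% of H3K27ac peaks of fold 4.17 and 4.14 were covered. At Esrp2, the paralogue of Esrp1, 36.4% was covered, at the keratin gene Krt7 15.9% and at the tight junction gene Cldn3 4.2%. Their H3K27me3 peaks were 0.383 to 2.31 kb wide, against 2.40 to 15.2 kb for the 8 deep overlaps. In the promoter table, which gives more starts than the gene ends, Cldn7 and the tight junction gene Tjp3 also had a start inside an overlap. By such starts 6 genes of other lists were added as well, the Notch ligand gene Dll1, the Wnt pathway gene Axin2, Sox6, Ephb2, Sema4c and the imprinted gene Gnas.

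**Figure D4:**
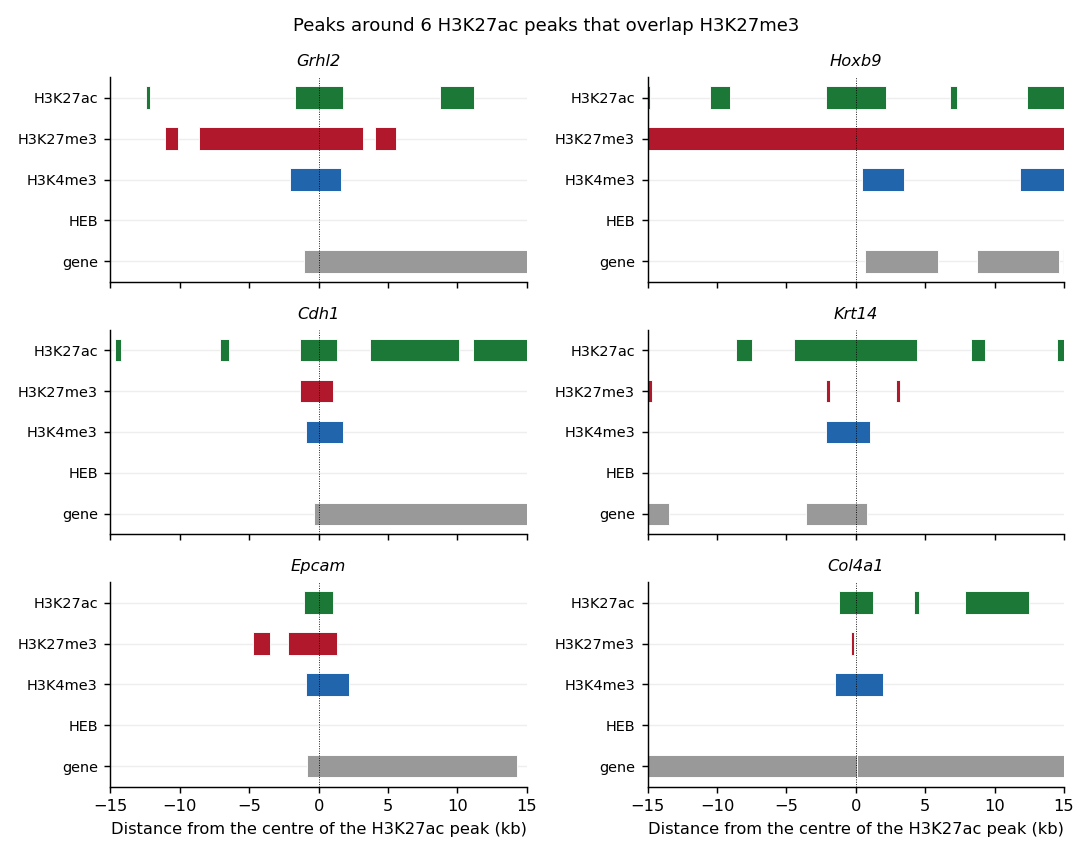
Deposited peaks of H3K27ac, H3K27me3, H3K4me3 and HEB and the protein-coding genes (rows) within 15 kb of the centre of the H3K27ac peak at 6 genes (panels; horizontal axis, distance from the centre in kb). H3K27me3 covers all of the central peak at Grhl2, Epcam and Hoxb9, 88.2% of it at Cdh1, and short stretches of 6.4% at Krt14 and 8.8% at Col4a1, and no HEB site lies in the windows.

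Mammary lineage genes outside the adhesion list were split. Of 22 basal genes 4 had an end in an overlap, the keratin genes Krt14 (6.4% covered, H3K27ac fold 6.23) and Krt6a (100% covered, fold 4.69), the hemidesmosome collagen gene Col17a1 (24.3%, fold 3.46) and the plakin gene Dst (100%, fold 3.09). Of 16 luminal progenitor genes 3 did, Ehf, Lbp and Gabrp, and of 18 myoepithelial contractile and 14 luminal hormone-sensing genes none did. With 1.49% of all genes at overlaps, a count of none in lists this small says little. The Gabrp peak (chr11:33578305-33580656), at a GABA receptor subunit gene, had H3K27ac of fold 2.64 and H3K27me3 of fold 1.89 without H3K4me3. Over all 20665 genes 140 had an end in a deep overlap with H3K4me3, and of 15 mesenchymal genes 3 did. These 3 were the transcription factor genes Twist2 (H3K27ac fold 4.11) and Foxc2 (2.88) and the cadherin gene Cdh11 (2.94).

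Developmental transcription factor genes, the usual ground of Polycomb, were also present. Of 39 Hox genes, which set position along the body axis, 7 had an end in an overlap, all of them deep. Over all 307 genes with an end in an overlap, 156 were at deep ones. H3K27me3 was at an end of 32 of the 39 and H3K27ac at an end of 11, against 5004 and 9472 of all 20665 genes. Hoxb7 and Hoxb8 shared a 4.72 kb H3K27ac peak of fold 4.90 with H3K4me3 of fold 9.46. Hoxb6 had H3K27ac of fold 3.602, Hoxb9 of 3.36 and Hoxb5 of 2.17, all under the same H3K27me3 peak. Hoxa3 had a 0.78 kb H3K27ac peak (chr6:52212888-52213667) of fold 3.93 inside a 137.6 kb H3K27me3 peak of fold 4.63. Hoxa4 alone of the 7 had no H3K4me3, with H3K27ac of fold 1.80.

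Other homeobox genes gave 5 of 60, among them Dlx5 (H3K27ac fold 4.70, 100% covered) and Pitx1 (3.47, 56.8%), both known for roles in limb and jaw development. Sox genes gave 3 of 18, Sox2, Sox21 and, as an edge contact, Sox11. Forkhead genes gave 3 of 28, Foxf1, Foxc2 and, as an edge contact, Foxs1. The T-box gene Tbx18 had H3K27ac of fold 5.76 (chr9:87726585-87732825) wholly inside a 20.5 kb H3K27me3 peak, with H3K4me3 of fold 13.4. Of 37 basic helix-loop-helix lineage factors, the wider family to which HEB belongs, 3 were at overlaps, Twist2, Bhlhe22 and Hey1.

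Signalling and cell cycle genes were also present. Of 59 Wnt pathway genes 5 had an end in an overlap. The ligand genes were Wnt7b (100% covered), Wnt5a (19.1%) and Wnt10a (21.1%), and the inhibitor genes Dkk2 (100%) and Notum (94.9%). Of 23 Notch pathway genes 2 did, Hey1, a target gene, and Nrarp, a feedback inhibitor, both as edge contacts. Ccnd2, the cyclin D2 gene, had H3K27ac of fold 4.53 (chr6:127147945-127152323) covered to 85.4% by a 31.6 kb H3K27me3 peak, and Cdk6, its kinase partner, H3K27ac of fold 6.17 covered to 34.0%. Of 33 Polycomb genes 2 did, Cbx2 and Cbx8, neighbours on chromosome 11 that encode readers of H3K27me3, both as edge contacts.

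The remaining lists had 0 to 3 genes at overlaps. Of 47 matrix genes 3 did, Col5a1 as a deep overlap and the head-to-head collagen pair Col4a1 and Col4a2, which shared 1 peak with 8.8% covered. Of 41 imprinted genes 2 did, Phlda2 and Mcts2, and of the signalling ligand and guidance lists 1 each, Inhbb and Sema7a. None of 31 cytoskeleton or 18 housekeeping genes did, and 21 and 16 of them had an H3K27ac peak under 10 kb at an end. Over all genes, 307 of the 9117 with such a peak had an end in an overlap. None of the immune, endothelial, adipocyte, fibroblast, neuronal or skeletal muscle markers did, at lists of 8 to 13 genes. With 1.49% of all genes at overlaps, counts of 0 in lists this small say little.

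The overlaps with the most of both marks named further genes. Ranked by the lower of the H3K27ac and H3K27me3 folds, the top 8 deep overlaps with H3K4me3 had as nearest genes Hoxa3, Hoxc5, Bahcc1 (2 peaks), Foxf1, Hlx, Cyp1b1 and Cbx8. The peak named for Cbx8 lay between genes, 17.3 kb from Cbx8, with H3K4me3 of fold 2.06. It is not the edge contact at the end of Cbx8. At Hlx, a homeobox gene, H3K27ac had fold 4.53 and H3K27me3 3.23. The top 8 without H3K4me3 were next to Dlgap2, Cib4, Gata2, Gpam, Nrtn, Hoxb9, C1qb and Gpr132, and all had H3K27ac folds of 2.70 to 3.41. The Gata2 peak (chr6:88203056-88204285) lay inside the gene of this haematopoietic transcription factor, 2.75 kb from the nearest gene end, under an H3K27me3 peak of fold 4.10. Among edge contacts with H3K27me3 peaks of 10 kb or more, the highest H3K27ac folds with H3K4me3 were 9.21 next to Nrf1, 19.2 kb from that gene, and 5.75 at Foxs1, followed by 4.91 at Epn3, 3.98 at Cbx8, 3.01 at Chchd7 and 2.99 at Lmf1. Without H3K4me3 they were 3.82 at Adgrb1, 3.06 in Rbfox3, a neuronal splicing factor gene, and 3.04 near Six3, a homeobox gene of the eye and forebrain, followed by Xkr6, Cacna2d4 and Ddx18 at 2.40 to 2.78.

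The promoter windows, 274 of them for 245 genes at overlaps, differed in CpG content by class. The median CpG ratio was 0.641 at overlaps (quartiles 0.397 and 0.780) and 0.80 at other H3K27ac peaks (0.626 and 0.936), with 0.586 over all 20085 windows. Deep overlaps with H3K4me3 had 0.674 and edge contacts with H3K4me3 0.642. Without H3K4me3 the medians were 0.228 over 12 windows and 0.256 over 11. Starts with H3K27me3 and H3K4me3 but no H3K27ac peak under 10 kb had 0.726, and starts with H3K27me3 but neither H3K4me3 nor an H3K27ac peak under 10 kb 0.298. Both of these groups can hold starts under wider H3K27ac peaks, such as that of Krt5. At 0.674, deep overlaps with H3K4me3 thus lay below the other acetylated promoters and below the starts with H3K27me3 and H3K4me3, at 0.726. They lay above the group at 0.298.

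The E-box CAGGTG, searched on both strands as CAGGTG or CACCTG, is a motif of E proteins and of the zinc finger repressors Snail and Zeb, which are known to bind it at Cdh1. It was in 33.8% (26.5 to 42.0) of windows at deep overlaps with H3K4me3 and 26.8% (19.5 to 35.7) at edge contacts with H3K4me3. Other H3K27ac peaks with H3K4me3 at the start had it in 15.4% (14.6 to 16.2), starts with H3K27me3 and H3K4me3 but no H3K27ac peak under 10 kb in 26.7% (23.5 to 30.1), and all windows in 20.03%. In the epithelial adhesion list 13 of 18 genes with a window had it, and 8 of the 9 genes with a start in an overlap, all but Ovol2. Over all 16457 genes with a window 22.5% had the E-box, and of the 245 with a start in an overlap 74 did. The share was not particular to the epithelial adhesion list. In the luminal hormone-sensing list 8 of 11 genes with a window had the E-box, and no gene of that list had a start in an overlap. The GC box GGGCGG (or CCGCCC) was in 55.8% of overlap windows against 66.3% at other H3K27ac peaks and 47.0% of all. TATAAA (or TTTATA) was in 7.66% against 5.84% and 12.7%, and the palindromic E-box CAGCTG in 18.98% against 13.7% and 15.6%. The 4 motifs are different strings, so a stretch of 6 bases matches at most 1 of them, though neighbouring matches may share letters, and a match is a string of letters, not a bound site.

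**Figure D5:**
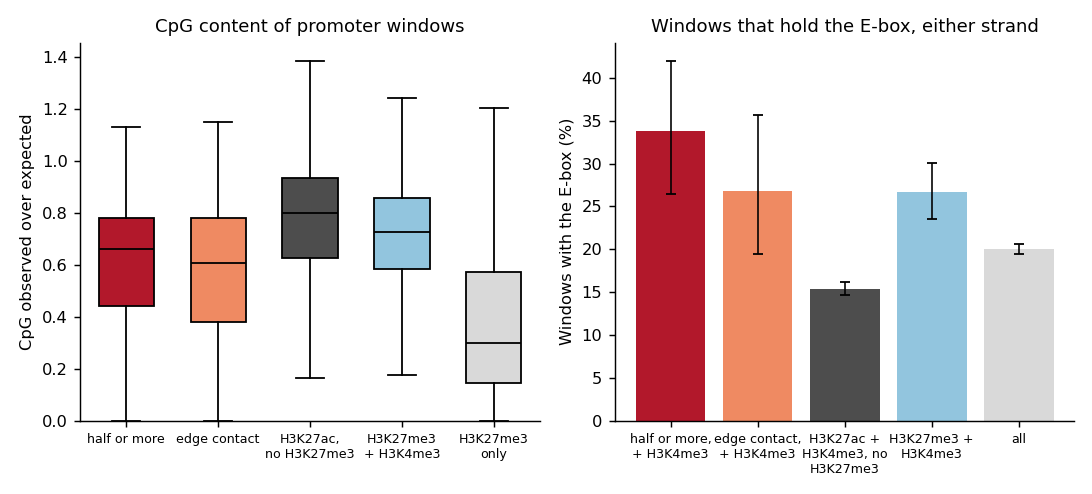
Left, CpG ratio (observed over expected) of promoter windows by the peaks at the start, where the groups with H3K27me3 that are not overlaps have no H3K27ac peak under 10 kb, with boxes from the lower to the upper quartile, the median as a line and whiskers to the last value within 1.5 box lengths. Right, share of windows that hold the E-box on either strand, in percent from 0, with Wilson 95% intervals over windows. Both kinds of overlap have a lower median CpG ratio than the other H3K27ac promoters at 0.80, and the E-box share is 33.8% and 26.8% at overlaps with H3K4me3 against 15.4% without H3K27me3.

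HEB sites were few at H3K27ac peaks both with and without H3K27me3. HEB lay in 32 of the overlaps (1.55%, 1.10 to 2.18), against 1.07% (0.990 to 1.16) of other H3K27ac peaks and 1.09% of all. Of these, 16 were deep overlaps (1.14%) and 16 edge contacts (2.42%), and of the 34 HEB sites 23 had their middle on H3K27me3. By width the shares were 0.877% of overlaps and 0.2399% of other peaks under 1 kb, 1.17% and 0.690% from 1 to 2 kb, 3.83% (2.21 to 6.58) and 1.73% (1.52 to 1.97) from 2 to 4 kb, and 3.20% (1.25 to 7.94) and 4.12% (3.62 to 4.68) from 4 to 10 kb. Of 15 overlaps with very high signal in both marks or at a chromosome end, 6 held HEB, and without such peaks the share was 1.27% of overlaps and 1.06% of other peaks. The overlaps with HEB and the highest H3K27ac folds were at Foxs1 (5.75), between genes near Fcgr1 (5.28), at the Wnt ligand gene Wnt10a (5.26), between genes on chromosome 8 (4.75), in the chemerin receptor gene Cmklr1 (3.88) and in Cacna1c (3.79). None of the 13 epithelial adhesion peaks held HEB, which says little for so few peaks where 1.55% of overlaps did.

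Chromosomes differed in how many overlaps they held and of which kind. The share of H3K27ac peaks that were overlaps ran from 1.27% on chromosome 12 to 5.92% on chromosome 6. Among H3K27ac peaks without H3K4me3 it ran from 0.394% on chromosome 12 to 5.83% on chromosome 6, and among those with H3K4me3 from 2.88% on chromosome 5 to 6.94% on chromosome 8. Chromosomes 5, 6, 8 and 15 together held 765 overlaps, 37.1% of them, with 25.4% of the H3K27ac peaks. Where both marks had a −log10 q of 5 or more, these 4 chromosomes held 68 of 260 overlaps (26.2%) with 22.9% of the H3K27ac peaks of that q, and the share of such peaks that were overlaps was highest on chromosome 11, at 1.78%, and 1.13% on chromosome 6. The order of chromosomes above therefore changes with the threshold. Over the 19 autosomes, which differ in length, the share without H3K4me3 and the H3K27me3 length in Mb had a Spearman rho of 0.788, given as a description. Without these 4 chromosomes H3K4me3 touched 38.8% of the remaining 1295 overlaps and 21.5% of other peaks. On chromosome 5 the order was the reverse, with H3K4me3 at 12.6% of 206 overlaps and 20.1% of other peaks. On chromosome 6 the shares were close, at 19.6% of 220 overlaps and 18.3% of other peaks.

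Extreme signal in both marks was seen in 5 overlaps, on chromosomes 2, 9 (3 peaks) and 14, with H3K27ac −log10 q-values up to 10149, against at most 619 in other peaks. Their H3K27ac folds were 2.01 to 3.50, and all 5 touched H3K4me3. Among deep overlaps with H3K4me3, the lowest H3K27me3 fold, 1.05, was that of the peak on chromosome 2.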

How the data were processed

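ChIP-seq libraries of Comma-Dβ cells (4 per target, 4 input) were summarised by the authors as 1 peak list per target. Positions are mm10, and SAMtools was used, per the submitters' processing notes. For the pooling of replicates, the control library, the aligner and the caller's settings, details were not given in the sources used here. Each peak's deposited fold enrichment is a ratio, ChIP over control, and its deposited q-value is on a −log10 scale. The deposited score is 10 times that value as a whole number (all but at most 5 peaks of a list, which differed by 1) and was not used further. The deposited HEB list holds positions only. The lists carry no read counts, so depth is unknown and low-fold peaks are the least precise.

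The members, gene lists and named genes were chosen with earlier results of these data known. Members were autosomal H3K27ac peaks under 10000 bp that share 1 bp or more with H3K27me3, and cover was taken over all H3K27me3 peaks. H3K4me3 and HEB counted at 1 bp or more. Gene ends are both ends of protein-coding genes in the RefSeq GRCm38.p6 table, of the same build, within 1 kb. A list gene counted where an end lay inside a member. The lists hold 764 genes, of which 1 was not matched and 15 were not on autosomes. Strand was known only for the 16457 genes with a promoter window. Genes were named where they are in a list, or as the 8 deep overlaps with and the 8 without H3K4me3 highest in the lower of the folds, the 6 edge contacts of each kind highest in H3K27ac at wide H3K27me3 peaks, the 6 members with HEB highest in H3K27ac, and the 5 H3K27me3 peaks with most members. Shares, figures and intervals were computed in Python with numpy, pandas and matplotlib, and the interval arithmetic was checked on 1200 simulated intervals. No test over samples was possible with 1 list per antibody, and alternatives of thresholds, overlap, window and chromosomes were run in its place.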

Additional observations from a re-analysis of the deposited data

How the results depend on the processing

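Across 22 alternatives, 82 values were compared with those reported. In 41 a value moved by more than its counting interval or, for a count, by over 1.5 times. Where the other H3K27ac peaks had a value too, no difference from them changed direction. The number of overlaps and the deep share have no such value. Overlaps had the larger share with H3K4me3 and the larger share at gene ends than other H3K27ac peaks under all alternatives run that give both groups a value. For H3K4me3 at bases with both H3K27 marks this was fixed in advance, since other peaks have no such bases. No alternative took 1 chromosome alone. On chromosome 5 the H3K4me3 order was the reverse, at 12.6% of overlaps and 20.1% of other peaks. With H3K27me3 peaks of −log10 q of 5 or more, 649 overlaps remained, 82.9% deep, 50.4% with H3K4me3, 2.47% with HEB and 35.6% at gene ends. With H3K27ac peaks of that q, there were 715, 52.0% deep, 56.4% with H3K4me3, 3.36% with HEB and 41.8% at gene ends, at a median fold of 3.16, against 41.1%, 2.08% and 32.2% of other peaks of that q. With both, there were 260, 70.8% deep, 78.1% with H3K4me3, 5.38% with HEB and 51.9% at gene ends, at a median fold of 3.18, against the same shares of other peaks. With H3K27me3 peaks above the median fold, 75.4% were deep, 36.5% had H3K4me3 and 28.6% were at gene ends. With at least 200 bp shared, 75.6% were deep. With X and Y added, 29.8% had H3K4me3 and 22.8% were at gene ends. Without chromosomes 1 to 6, 1078 remained, with H3K4me3 at 36.5%, gene ends at 29.0% and a median fold of 2.24, and without 7 to 12 H3K4me3 was at 29.3%. Deep overlaps were 81.2% at a limit of 25% and 58.5% at 75%. H3K4me3 was at 25.5% where it had to cover at least 50% of the peak and 29.3% with H3K4me3 peaks of −log10 q of 5 or more. Gene ends were at 21.2% within 500 bp, 30% within 2500 bp, 31.6% with all genes of the table and 17.4% with annotated starts. Without chromosomes 5, 6, 8 and 15, 1295 remained, 65.3% deep, 38.8% with H3K4me3 and 28.9% at gene ends, at a median fold of 2.29. The last set, the annotated starts and the removal of very high signal and chromosome ends were chosen after seeing the data. No paired analysis was possible because each antibody has 1 list with no replicate values, and for the same reason no replicate could be left out. Low-fold peaks limit the deep overlaps without H3K4me3 most.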
